A study of Mus musculus with 144 samples.

Results

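Total RNA of wild-type mouse liver was compared on either side of lights on, at ZT22 and at ZT2. ZT is zeitgeber time, the hours since the lights came on, so the 2 time points lie 4 h apart, one late in the dark and one early in the light. The libraries were chosen by genotype, RNA fraction and time, with no measured value used, and they are 12 of the 144 libraries of the series (6 at ZT22 and 6 at ZT2). All 12 are labelled as liver of wild-type male C57BL/6J mice kept in a 12 h light and 12 h dark cycle and fed ad libitum, and no treatment other than the light cycle separates the groups. The series measured transcript ends by QuantSeq, a 3′ mRNA sequencing method in which each read marks the end of a transcript next to its poly(A) tail. 3 further kinds of library at ZT22 and ZT2 are set beside the wild-type total RNA where stated: nuclear RNA of wild-type liver, isolated through a sucrose cushion, polysomal RNA of wild-type liver, taken from a sucrose gradient with cycloheximide (a drug that holds ribosomes on mRNA), and total RNA of Bmal1-/- liver. Wild-type total RNA at ZT10 and ZT14, on either side of lights off, served as the other comparison. Nothing in the labels says which replicates came from separate animals, so the p-values below measure the spread between these libraries, which may be technical in part.

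The circadian clock of the liver is a feedback loop of transcription. BMAL1 (gene Arntl) and CLOCK bind E-box sequences and switch on the Per and Cry genes, whose proteins then repress BMAL1 and CLOCK, and the same pair switches on Nr1d1 and Nr1d2, which encode the repressors REV-ERB alpha and beta. REV-ERBs and the ROR activators compete for another element that controls Arntl, Cry1 and other targets, and in liver this loop times metabolism over the day. In bulk tissue such as this, fewer cells of a type and less RNA per cell cannot be told apart.

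Depth was 5316601 to 9828730 gene counts per library among the 12, against 1662449 to 14281894 over all 144. Levels are given as CPM, which is a gene's count scaled to the same total of gene counts in each library; QuantSeq gives 1 read per transcript end, so CPM is not divided by gene length. Of 51912 gene symbols, 12020 reached a mean count of 10 per library and were tested by edgeR's quasi-likelihood test with Benjamini-Hochberg adjustment. Log2 changes are ZT2 over ZT22, so a positive value means a higher level after lights on.

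2 libraries stood apart from the rest. ZT2 replicate 4 had a score of 107 on the first principal component (34.6% of the variance) where the other 11 lay between −18.2 and −0.309. In that library 709 genes were at least 4-fold from the median of the 12, against 8 to 141 in the others, and 15392 genes were detected, against 16965 to 18395. At least 4-fold lower there were 46 of 162 pseudogene models (28.4%) and 595 of 11858 other genes (5.02%). Among genes named after their values were seen, it had 0 CPM of Gapdh (a glycolytic enzyme), 16.7 CPM of Ftl1 (ferritin light chain) and 6.58 CPM of Rpl41 (a ribosomal protein), against ZT2 medians of 10.5, 821 and 103 CPM. ZT22 replicate 5 went against its male label: it had 3221 counts of Xist, the RNA of the inactive X chromosome, where the other 11 had at most 2, and 6 counts summed over the Y-linked genes Ddx3y, Eif2s3y, Kdm5d and Uty, where the other 11 had at least 594. Many results that rest on either library are also given without it or without both.

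Nr1d1 rose and Usp2 fell across lights on, and these were the 2 genes of 12020 that passed the adjusted threshold of 0.05 (0.0166%). Without any adjustment, 652 genes (5.42%) had p under 0.05, 347 of them higher and 305 lower at ZT2, and the median log2 change of all tested genes was 0.01. In 48 genes (0.399%) the 6 values at ZT2 did not overlap the 6 at ZT22, with 28 higher and 20 lower at ZT2. The number called depended on the libraries and the tool: leaving out both libraries that stood apart gave 4 genes (1 higher, 3 lower; 602 of 12066, or 4.99%, at unadjusted p under 0.05), and DESeq2 called 14 (3 higher, 11 lower). The plot of all tested genes places Nr1d1 and Usp2 apart from the mass of genes on opposite sides.

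**Figure D1:**
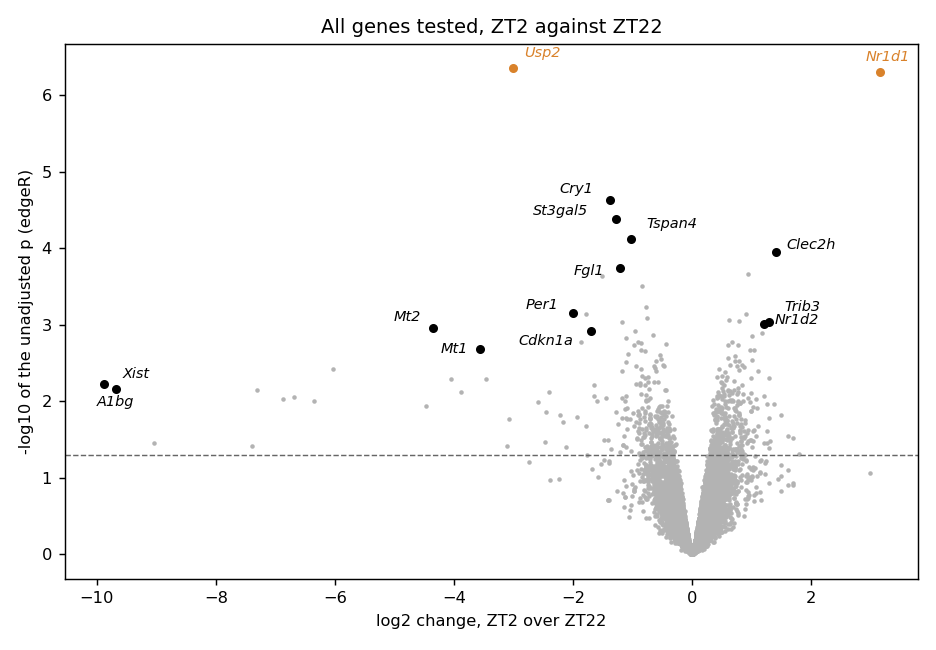
Log2 change of ZT2 over ZT22 (horizontal axis) against −log10 of the unadjusted edgeR p (vertical axis) for the 12020 tested genes; orange points passed an adjusted p of 0.05 and the dashed line marks an unadjusted p of 0.05. Nr1d1 at 3.15 and Usp2 at −3.01 are the 2 orange points, and 652 genes lie above the dashed line.

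The upstream sequences of the 2 called genes and of Cry1, the gene with the third smallest p, are shown because the clock proteins act through short elements at such sites. They are the 250 bases before an annotated transcript start, from RefSeq GRCm38.p6, written 5′ to 3′ on the gene's own strand. Capitals mark the E-box CACGTG and its 1-base variant CACGTT, which reads AACGTG on the other strand. The windows are chr11:98775378-98775627 on the minus strand for Nr1d1, chr9:44084670-44084919 on the plus strand for Usp2 and chr10:85185055-85185304 on the minus strand for Cry1.
Nr1d1: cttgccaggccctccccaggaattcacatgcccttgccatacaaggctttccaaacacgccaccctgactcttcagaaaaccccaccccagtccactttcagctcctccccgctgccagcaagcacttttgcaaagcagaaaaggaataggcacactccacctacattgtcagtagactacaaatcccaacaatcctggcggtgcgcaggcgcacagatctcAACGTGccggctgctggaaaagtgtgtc
Usp2: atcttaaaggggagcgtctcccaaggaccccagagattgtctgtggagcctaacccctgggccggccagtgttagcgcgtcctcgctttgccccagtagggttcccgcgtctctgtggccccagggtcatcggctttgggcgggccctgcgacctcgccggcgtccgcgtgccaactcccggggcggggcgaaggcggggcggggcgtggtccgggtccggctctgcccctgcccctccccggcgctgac
Cry1: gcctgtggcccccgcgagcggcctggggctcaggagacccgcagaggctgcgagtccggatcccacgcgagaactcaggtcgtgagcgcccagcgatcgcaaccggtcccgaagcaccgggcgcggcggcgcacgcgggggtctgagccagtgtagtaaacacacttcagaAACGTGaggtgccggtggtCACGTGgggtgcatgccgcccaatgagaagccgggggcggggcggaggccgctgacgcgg
The Cry1 window held an E-box at 60 to 55 bases before the start and the variant at 79 to 74. The Nr1d1 window held the variant at 28 to 23 bases before the start, and the Usp2 window held neither. That Usp2 window lies inside the gene (chr9:44067021-44095627), before an internal transcript start. The bases before the first start of Usp2 were not searched. Over all 32851 upstream windows of the same length, searched on both strands, 6.02% held CACGTG and 3.85% held CACGTT. The same search used TAGGTCA (the REV-ERB and ROR element, in 2.23% of windows), TTANGTAA (the D-box of the DBP family, in 2.06%) and TGACGTCA (the cAMP response element, in 1.55%). Of 10 genes looked up, 9 had entries, and CACGTG was also found in windows of Per1, Tef, Tspan4 and Rcan1. Those Per1 and Tspan4 windows, and the Tef window that begins at chr15:81811164, lie inside their genes. A gene can have several windows, so a match in a gene cannot be set against a share per window. TGACGTCA was found in a window of Rcan1. A match describes letters in this window and not a bound site.

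Nr1d1, the repressor arm of the loop, was at 2.80, 1.85, 2.24, 0.451, 0.254 and 2.52 CPM in ZT22 replicates 1 to 6 and at 17.1, 17.7, 14.1, 12.8, 13.6 and 17.6 CPM in ZT2 replicates 1 to 6. Every ZT2 library lay above every ZT22 library, and ZT22 replicates 4 and 5 were the lowest, with 3 and 2 counts. The log2 change was 3.15 (SE 0.38), which is 8.90-fold, with an edgeR adjusted p of 0.00301. It stayed between 2.92 and 3.36 when any single library was left out, and was 2.95 (edgeR adjusted p = 0.000629) without both libraries that stood apart. Replicates 1 to 3 fitted alone gave 2.76 (edgeR adjusted p = 0.0117) and replicates 4 to 6 gave 3.73 (edgeR adjusted p = 0.826); over all alternatives the adjusted p ran from 6.38e-15 to 0.826.

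Nr1d1 ends inside the 3′ end of Thra, the thyroid hormone receptor alpha gene on the opposite strand, over 1075 bp (Nr1d1 chr11:98767932-98775377, Thra chr11:98740776-98769006, RefSeq GRCm38.p6). Gene counts are not stated to use strand, and without strand the reads of such a pair cannot be told apart. Thra had a log2 change of 0.00 (unadjusted p = 0.987). The authors' site counts do carry a strand, and both Nr1d1 sites are on the minus strand of Nr1d1. The site at chr11:98767928-98767975 was at 0.254, 1.37 and 2.45 CPM (lowest, median and highest of 6) at ZT22 and at 7.71, 9.87 and 12.6 CPM at ZT2, a log2 change of 2.94 (SE 0.44). The second, chr11:98768119-98768156, had a log2 change of 3.26 (SE 0.49). Neither pair of groups overlapped, and each had an edgeR adjusted p of 0.0802 over the 19654 sites tested.

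Usp2, which encodes a ubiquitin-specific protease and is a well-known output of the liver clock, moved the other way. Its level was 6.66, 7.83, 11.4, 18.2, 12.9 and 27.1 CPM in ZT22 replicates 1 to 6 and 1.35, 2.39, 1.46, 2.26, 1.89 and 1.27 CPM in ZT2 replicates 1 to 6. The groups did not overlap, and the spread was wider before lights on than after. The log2 change was −3.01 (SE 0.36), which is 8.04-fold lower at ZT2, with an edgeR adjusted p of 0.00301. Leaving out any single library gave −3.15 to −2.68, and leaving out both that stood apart gave −3.13 (edgeR adjusted p = 0.0323). With 3 libraries per group, replicates 1 to 3 gave −2.38 (edgeR adjusted p = 0.102) and replicates 4 to 6 gave −3.42 (edgeR adjusted p = 0.331), out of a range of 3.3e-12 to 0.331 over all alternatives.

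Usp2 transcripts ended at several sites, and both sites tested had negative log2 changes. The site at chr9:44093854-44093938 lies 1689 bp before the annotated end of the gene and carried 50.1% of the gene's site counts at ZT22 and 50.8% at ZT2; its log2 change was −2.95 (SE 0.46, edgeR adjusted p = 0.0816). The site at chr9:44095536-44095629, at the annotated end, carried 29.0% and 26.2%, with a log2 change of −3.13 (SE 0.64, edgeR adjusted p = 0.431). Between them, chr9:44095298-44095314 carried 18.9% and 13.1% and chr9:44094029-44094051 carried 2.05% and 9.84%, and both were under the count minimum. These shares are of counts summed over the libraries of a group, and ZT2 holds few counts of Usp2.

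**Figure D2:**
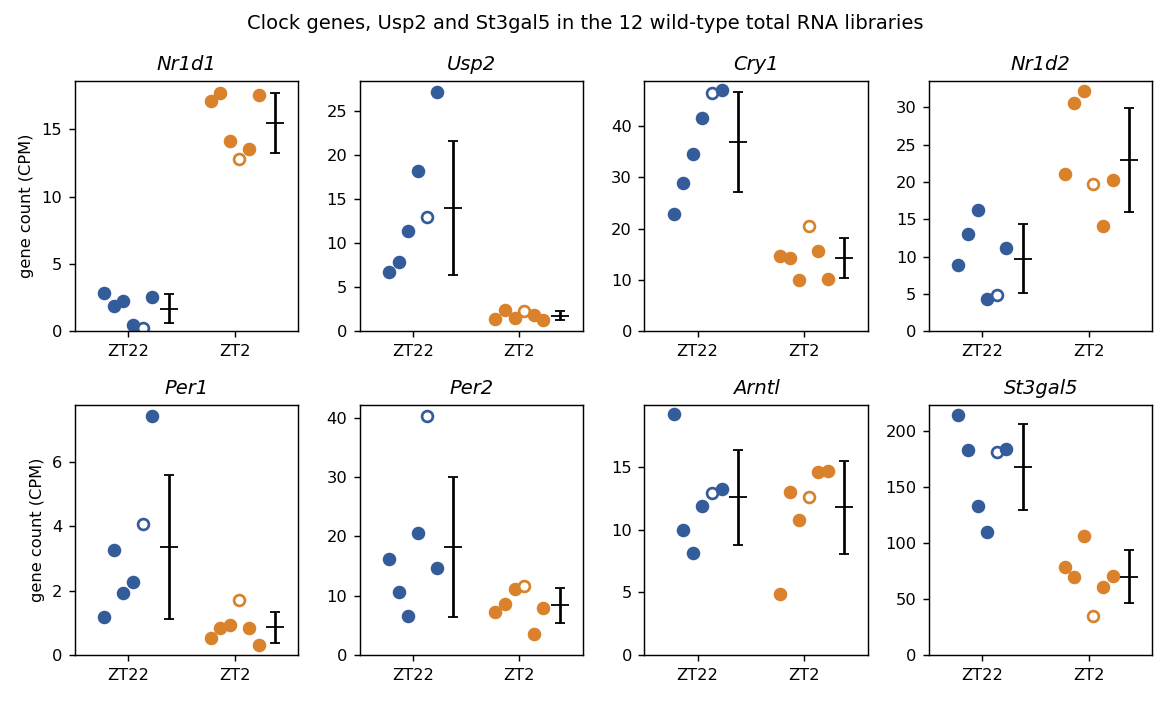
CPM (vertical axis) of Nr1d1, Usp2, Cry1, Nr1d2, Per1, Per2, Arntl and St3gal5 in each of the 6 ZT22 (blue) and 6 ZT2 (orange) libraries, 1 point per library, with open circles for ZT2 replicate 4 and ZT22 replicate 5 and the mean ± SD in black. Nr1d1 lies at 0.254 to 2.80 CPM before and 12.8 to 17.7 CPM after lights on, and Usp2 at 6.66 to 27.1 CPM before and 1.27 to 2.39 CPM after.

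Among the 19 core clock genes, 16 passed the count minimum. Of these, 1 (Nr1d1) passed the adjusted threshold, and 8 (50%) had an unadjusted p under 0.05, against 5.42% of all genes: Nr1d1, Nr1d2 and Npas2 were higher and 5 were lower at ZT2, among them Per1, Per2, Cry1 and Tef. The median log2 change of the 16 was −0.30, and −0.16 without both libraries that stood apart, where 2 were higher and 6 lower at unadjusted p under 0.05. Dbp, a D-box activator, together with Bhlhe41 and Ciart, repressors of BMAL1 and CLOCK, fell under the count minimum in these 12 libraries; Dbp was at 1.27 ± 0.505 CPM (SD, n = 6) at ZT22 and 1.05 ± 0.860 CPM at ZT2.

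Cry1, a repressor of the negative arm, had the clearest difference among the clock genes that missed the threshold. It was at 22.9, 28.9, 34.6, 41.7, 46.5 and 47.0 CPM in ZT22 replicates 1 to 6 and at 14.7, 14.2, 10.1, 20.5, 15.7 and 10.1 CPM in ZT2 replicates 1 to 6. The groups did not overlap. The log2 change was −1.37 (SE 0.23, edgeR adjusted p = 0.0939). It was −1.52 (edgeR adjusted p = 0.0108) without ZT2 replicate 4 and −1.48 (edgeR adjusted p = 0.0388) without ZT22 replicate 1. With any other single library left out the edgeR adjusted p ran from 0.138 to 0.395. Without both libraries that stood apart the log2 change was −1.47 (edgeR adjusted p = 0.0323). Over all alternatives the adjusted p ran from 8.06e-05 to 0.826. The single assigned site of Cry1, chr10:85131699-85131864 at the annotated gene end, had a log2 change of −1.39 (SE 0.24).

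The second REV-ERB gene, Nr1d2, was at 4.36, 10 and 16.2 CPM (lowest, median, highest) at ZT22 and at 14, 20.6 and 32.1 CPM at ZT2, with a log2 change of 1.22 (SE 0.30, edgeR adjusted p = 0.588). The highest ZT22 value exceeded the lowest ZT2 value, so the groups overlapped. The activator gene Rora was at medians of 129 and 112 CPM, a log2 change of −0.15.

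The Period genes encode the partners of the CRY repressors. Per1 was at 1.17, 2.77 and 7.43 CPM at ZT22 and at 0.316, 0.832 and 1.69 CPM at ZT2, with a log2 change of −2.0 (SE 0.47, edgeR adjusted p = 0.584). Per2 was at 6.61, 15.5 and 40.3 CPM at ZT22 and at 3.54, 8.21 and 11.7 CPM at ZT2, with a log2 change of −1.12 (SE 0.38, edgeR adjusted p = 0.806). Both overlapped between the groups, since the lowest ZT22 library lay within the ZT2 range. Per3 had a log2 change of −0.44 and 5.20 CPM in ZT22 replicate 5, where the next ZT22 library had 1.65 CPM; without both libraries that stood apart its value was 0.33.

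Arntl and Clock, the activators, gave no difference at unadjusted p under 0.05, with log2 changes of −0.11 and 0.14. Arntl was at 8.14, 12.4 and 19.3 CPM at ZT22 and at 4.87, 12.8 and 14.7 CPM at ZT2, so the medians lay close together and the groups overlapped. Npas2, a partner of BMAL1 like CLOCK, had a log2 change of 0.62 (SE 0.28) and was highest in ZT2 replicate 4 at 5.08 CPM. Without that library its log2 change was 0.44 (unadjusted p = 0.108 by edgeR), and without both libraries that stood apart it was 0.50 (unadjusted p = 0.0886 by edgeR), so it no longer counts among the higher genes. Of the D-box factors, Tef had −0.73, Hlf −0.31 and the repressor Nfil3 0.23. Without both libraries that stood apart Hlf had −0.54 (unadjusted p = 0.00294 by edgeR). The remaining repressors, Cry2 and Bhlhe40, had −0.29 and −0.44, and −0.16 and −0.21 without both libraries.

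Among 15 clock output genes, all tested, 9 (60.0%) had an unadjusted p under 0.05, against 5.42% of all genes. Of these, 1 was higher and 8 were lower at ZT2. The median log2 change of the 15 was −0.81 (−0.83 without both libraries that stood apart, with 1 higher and 10 lower). Usp2 was the 1 that passed adjustment. Among the others that were lower were Noct (nocturnin), Wee1 (a cell-cycle kinase), Por (the electron donor of cytochromes P450), Lpin1 (a phosphatidate phosphatase), Tsc22d3 and Cdkn1a. Wee1 was at 2.71, 4.42 and 6.21 CPM at ZT22 and at 1.68, 2.42 and 3.01 CPM at ZT2, with a log2 change of −0.91 (SE 0.24). Lpin1 rested in part on 1 library, with 145 CPM in ZT22 replicate 6 against 58.5 CPM in the next. Noct was at 12.6 CPM in ZT22 replicate 5 and 3.70 CPM in the next, and its log2 change of −1.41 was −0.83 without both libraries that stood apart.

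The heme synthesis enzyme Alas1 and the secreted protein Tsku, both named after their values were seen, had their highest value in ZT2 replicate 4. Tsku was at 23.5 CPM in that library and at most 9.43 CPM in the other ZT2 libraries, against a ZT22 median of 17.4 CPM. Its log2 change was −0.81 (edgeR adjusted p = 0.905) with all 12 and −1.58 (edgeR adjusted p = 0.0597) without both libraries that stood apart, the smallest adjusted p of its alternatives, which reached 0.988. Alas1 was at 191 CPM in that library and at most 48.3 CPM in the other ZT2 libraries, against a ZT22 median of 103 CPM, with log2 changes of −0.66 and −1.33. What sets ZT2 replicate 4 apart was not tested.

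The list of 18 glucocorticoid targets holds genes linked to the receptor of this stress hormone. Of these, 8 (44.4%) had an unadjusted p under 0.05, against 5.42% of all genes. All 8 were lower at ZT2: Fkbp5, Tsc22d3, Zbtb16, Mt1, Mt2, Lcn2, Per1 and Cdkn1a. None passed adjustment. The median log2 change was −0.32, and −0.26 without both libraries that stood apart, where 1 was higher and 8 lower. Other members had positive log2 changes, among them Igfbp1 (an insulin-repressed gene) with 1.03. Igfbp1 was higher without both libraries (unadjusted p = 0.0443 by edgeR). It rested in part on ZT2 replicate 5, at 244 CPM against 73.6 CPM in the next. Cdkn1a (the cell-cycle inhibitor p21) was at 42.6, 87.1 and 116 CPM at ZT22 and at 9.03, 19.4 and 46.1 CPM at ZT2, a log2 change of −1.70 (SE 0.42). Tsc22d3 (the anti-inflammatory protein GILZ) was at 56.3, 75.4 and 128 CPM and then at 34.0, 43.3 and 64.3 CPM, a log2 change of −0.85 (SE 0.22). In both genes the highest ZT2 library reached into the ZT22 range.

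Zbtb16 (a zinc finger factor) had a log2 change of −1.86 (SE 0.48) and Fkbp5 (a co-chaperone of the receptor) one of −0.95 (SE 0.30). The metallothioneins, which bind zinc and copper, varied widely between libraries. Mt1 was at 10.4, 40.7, 178, 9.78, 480 and 428 CPM in ZT22 replicates 1 to 6 and at 3.39 to 32.9 CPM at ZT2. Thus 3 ZT22 libraries were far above every ZT2 library and 2 lay within the ZT2 range. The log2 change of −3.56 had an SE of 0.94 and an edgeR adjusted p of 0.663. Mt2 had −4.34 (SE 1.05). Without both libraries that stood apart Mt1 had −2.89 and Mt2 −3.87. 3 of the 18 members, Per1, Tsc22d3 and Cdkn1a, also count in the clock lists above.

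The remaining lists had few members past the unadjusted threshold, and none past the adjusted one. Among 26 heat shock genes, 1 was higher and 3 lower at ZT2, and among 35 ribosome assembly genes 4 were lower (11.4%, against 5.42% of all genes). Those 4 were Nop56, Nolc1, Polr1a and Ddx21, factors of ribosomal RNA synthesis and processing, and 3 of them were highest in ZT22 replicate 4. Among 26 PPAR alpha targets 4 were lower, among them Cyp4a10 (fatty acid omega-hydroxylation; log2 −0.70) and Plin5 (a lipid droplet protein; −0.54). Of 24 heme and xenobiotic genes 3 were lower, namely Por and the nuclear receptor genes Nr1i2 (−0.51) and Nr1i3 (−0.71), and 7 were lower without both libraries that stood apart. In 20 bile acid genes 2 were higher: Abcb11, the bile salt export pump, and Nr0b2, the repressor SHP. Without both libraries that stood apart, heat shock had 1 higher and 2 lower, and ribosome assembly 1 and 3. PPAR alpha targets then had 0 higher and 3 lower, and bile acid genes 2 and 0. Cyp4a10 and Acot3, both among the 4 lower PPAR alpha targets, then had unadjusted edgeR p of 0.0723 and 0.102.

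Abcb11 was at 140, 169 and 188 CPM at ZT22 and at 195, 237 and 400.4 CPM at ZT2, without overlap. Its highest value was ZT2 replicate 4, and its log2 change was 0.65 (SE 0.19) with all 12 and 0.40 without both libraries that stood apart. Nr0b2 was at 10.6, 17.3 and 36.5 CPM and then at 33.0, 40.3 and 43.7 CPM, with a log2 change of 0.97 (SE 0.26). The highest ZT22 library of Nr0b2 reached into its ZT2 range, so these groups overlapped.

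In the lists of cholesterol synthesis (25 genes), amino acid breakdown and the urea cycle (24), translation factors (25), mitochondrially encoded genes (9) and cleavage and polyadenylation factors (25), 0 genes had an unadjusted edgeR p under 0.05. Without both libraries that stood apart (4.99% of all genes), 5 amino acid genes were higher and 0 lower, among them Hal (histidine ammonia-lyase; log2 0.57), named after its value was seen. Cholesterol synthesis then had 1 higher and 1 lower, translation factors and mitochondrially encoded genes 0 higher and 1 lower each, and cleavage and polyadenylation factors 0 in either direction. Their most abundant tested members were Hmgcs1 (a cholesterol synthesis enzyme), Gnmt (a glycine methyltransferase), Eef1a1 (an elongation factor), mt-Nd4 (a subunit of complex I) and Pabpc1 (the cytoplasmic poly(A)-binding protein). Their log2 changes were 0.17, −0.12, 0.08, 0.07 and 0.05. Fatty acid synthesis (23 genes), the ATF4 pathway (11), methyl and NAD metabolism (21) and glucose production (25) had 1 each, and their most abundant members Scd1, Atf5, Haao and Igf1 had log2 changes of 0.08, −0.32, −0.04 and −0.10. Autophagy had 2 higher and 1 lower of 29, the SR splicing proteins 2 and 1 of 28, immediate early genes 1 and 2 of 17, endoplasmic reticulum folding 0 and 2 of 23, and the 3 cold-inducible genes 1 and 0. Without both libraries that stood apart, the counts higher and lower were 1 and 3 for the ATF4 pathway, 2 and 2 for glucose production, 1 and 1 for methyl and NAD metabolism and for autophagy, and 2 and 0 for the SR splicing proteins. They were 1 and 0 for immediate early genes, and 0 and 0 for endoplasmic reticulum folding and for the cold-inducible genes. The plot of the lists shows every tested member against the median of its list.

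**Figure D3:**
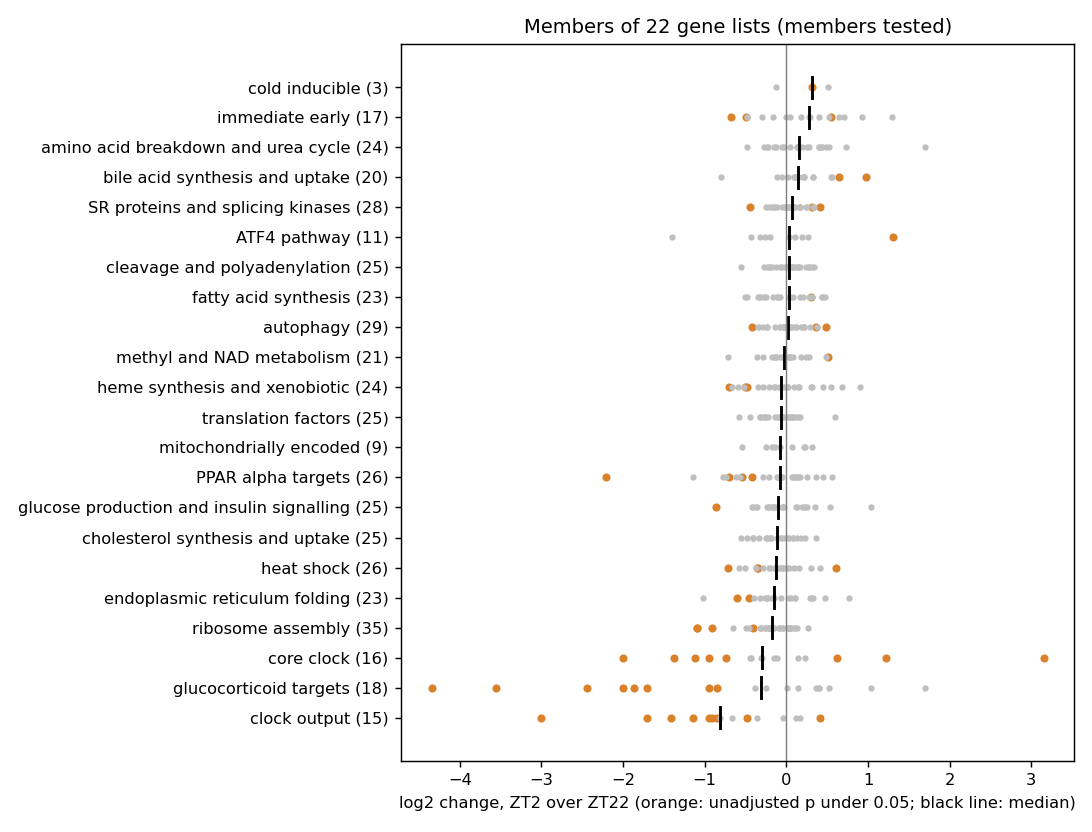
Log2 change of ZT2 over ZT22 for every tested member of each gene list, 1 point per gene, orange where the unadjusted edgeR p was under 0.05, with a black mark at the list median. The clock output list has its median at −0.81 and the core clock list at −0.30, while the median of all tested genes is 0.01.

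Several genes named after their values were seen, some of them members of the lists above, had groups that did not overlap. St3gal5, the enzyme that makes the ganglioside GM3, was at 110, 182 and 215 CPM at ZT22 and at 34.4, 69.8 and 106 CPM at ZT2. Its log2 change was −1.28 (SE 0.23, edgeR adjusted p = 0.125). It was −1.15 (edgeR adjusted p = 0.0492) without ZT2 replicate 4 and −1.14 (edgeR adjusted p = 0.0822) without both libraries that stood apart. With any other single library left out the edgeR adjusted p ran from 0.0892 to 0.501. Over all alternatives the adjusted p ran from 0.000228 to 0.826. Its main site, chr6:72154416-72154575, had −1.25 and a weaker one, chr6:72153703-72153797, had −1.75. Fgl1, a secreted liver protein of the fibrinogen family, was at 343, 540 and 776 CPM and then at 160, 230 and 313 CPM, a log2 change of −1.20 (SE 0.24).

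Tspan4, a tetraspanin, was at 29.3, 40.9 and 53.9 CPM and then at 15.0, 20.5 and 27.1 CPM, a log2 change of −1.02 (SE 0.19, edgeR adjusted p = 0.183). Rcan1, an inhibitor of calcineurin, had −0.84 and the Krüppel-like factor Klf13 had −0.77. On the higher side at ZT2, Clec2h, a C-type lectin, was at 1.96, 2.64 and 3.98 CPM and then at 4.48, 7.2 and 10.9 CPM, a log2 change of 1.41 (SE 0.27, edgeR adjusted p = 0.227). Trib3, a pseudokinase induced by ATF4, had 1.30. Lrat, which esterifies retinol for storage, had 0.61, and Atg13, of the complex that starts autophagy, had 0.48. All of these groups were separate, as they were in 0.399% of tested genes.

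Some of the largest log2 changes came from 1 library. A1bg and Xist (−9.89 and −9.68) and the cytochrome P450 genes Cyp2a4, Cyp2b9, Cyp3a41a and Cyp2c69 (−4.05, −3.88, −4.46 and −3.46) were high in ZT22 replicate 5, the library that goes against its male label. It had 465 CPM of A1bg, 343 CPM of Cyp2a4, 141 CPM of Cyp2b9, 90.4 CPM of Cyp3a41a and 859 CPM of Cyp2c69. The next ZT22 library had 0.203, 24.8, 8.24, 1.05 and 98.8 CPM of these genes. Their fitted changes rest on that library: without both libraries that stood apart Cyp2a4, Cyp2b9 and Cyp2c69 had −1.10, −1.40 and −1.45, while A1bg, Xist and Cyp3a41a fell under the count minimum. In the acute-phase genes Saa1 and Saa2 the highest library was ZT22 replicate 3, at 1001 and 403 CPM.

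Markers of the cell types that liver samples hold were compared in the same libraries. The 10 hepatocyte markers summed to 83788 to 117405 CPM at ZT22 and to 82076 to 112762 CPM at ZT2. Cholangiocyte markers summed to 27.1 to 49.3 CPM and 43.4 to 65.5 CPM, and Sox9 and Spp1, 2 of the 3 tested, had log2 changes of 0.49 and 0.59 at unadjusted p under 0.05. Their highest sum was in ZT2 replicate 4. Red blood cell markers summed to 2543 to 13135 CPM and 1219 to 4390 CPM, with a median log2 change of −0.79 over the tested members and −1.17 for the globin gene Hba-a2 (unadjusted p = 0.0368 by edgeR). All 11 Kupffer cell markers had a negative log2 change, with a median of −0.34 (−0.41 without both libraries that stood apart) and −0.71 for the complement gene C1qb (unadjusted p = 0.00901 by edgeR). The hepatocyte marker Hp (haptoglobin), with −0.92, the sinusoidal marker Pecam1, with −0.50, and the stellate cell marker Lrat, with 0.61, also had an unadjusted p under 0.05. Without both libraries that stood apart the unadjusted edgeR p was 0.0728 for Hba-a2, 0.0834 for Pecam1, 0.0663 for Spp1 and 0.0483 for Sox9. The third tested cholangiocyte marker then had a log2 change of 3.09 (unadjusted p = 0.00251 by edgeR). Summed markers of Kupffer cells lay at 290 to 882 CPM and 319 to 496 CPM, of sinusoidal endothelium at 247 to 318 CPM and 241 to 293 CPM, and of stellate cells at 310 to 411 CPM and 354 to 426 CPM. Lymphocyte markers lay at 6.23 to 44.6 CPM and 11 to 26.3 CPM, neutrophil markers at 1.5 to 42.7 CPM and 2.82 to 71.3 CPM. Adipocyte markers lay at 2943 to 7344 CPM and 4323 to 10388 CPM, with nearly all of this sum from Car3 (log2 0.33), a gene that hepatocytes express too, while Cfd had −2.22 and Cidec −1.14. Exocrine pancreas markers lay at 17.7 to 55.3 CPM and 19 to 94.4 CPM. For each of the 10 lists the ranges of the groups overlapped. The adipocyte markers Plin1 and Lep were at 0 in all 12 libraries, as were 6 of 8 exocrine pancreas markers. The part of these markers in the results above was not tested.

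Nuclear and polysomal RNA of the same times gave separate libraries in which to measure the step. They may come from the same livers as the total RNA, so they are not taken as independent of it. In nuclear RNA 2 of 11374 genes passed adjustment (0.0176%), again with Nr1d1 higher and Usp2 lower. Nr1d1 was at 3.14 ± 1.82 CPM (SD, n = 6) at ZT22 and 27.9 ± 8.16 CPM at ZT2, a log2 change of 3.26 (edgeR adjusted p = 5.47e-05). Usp2 was at 39.9 ± 19.8 CPM and 9.09 ± 2.89 CPM, a log2 change of −2.05 (edgeR adjusted p = 0.0271). The count was 1 when any of 7 single nuclear libraries was left out (ZT2 replicates 2, 4, 5 and 6, and ZT22 replicates 4, 5 and 6), with 1 gene higher and 0 lower. Nuclear ZT22 replicate 5 is 1 of these, and it also goes against the male label (4363 CPM of Xist and 0.249 CPM of the Y-linked genes).

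In polysomal RNA 2 of 10832 genes passed (0.0185%), and both were lower at ZT2. Usp2 was at 22.7 ± 10.4 CPM (SD, n = 6) and 4.55 ± 2.10 CPM, a log2 change of −2.48, and St3gal5 was at 188 ± 63.1 CPM and 67.9 ± 22.9 CPM, a log2 change of −1.60 (edgeR adjusted p = 0.00735 for each). Nr1d1 was at 2.63 ± 3.26 CPM and 30.3 ± 10.3 CPM, a log2 change of 3.51 (edgeR adjusted p = 0.166). Polysomal ZT22 replicate 1 goes against the male label too (165 CPM of Xist), and 3 genes passed without it. Cry1 had −1.02 in nuclear and −1.04 in polysomal RNA, and Nr1d2 1.09 and 1.13. Whether these steps differ from those in total RNA was not tested.

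**Figure D4:**
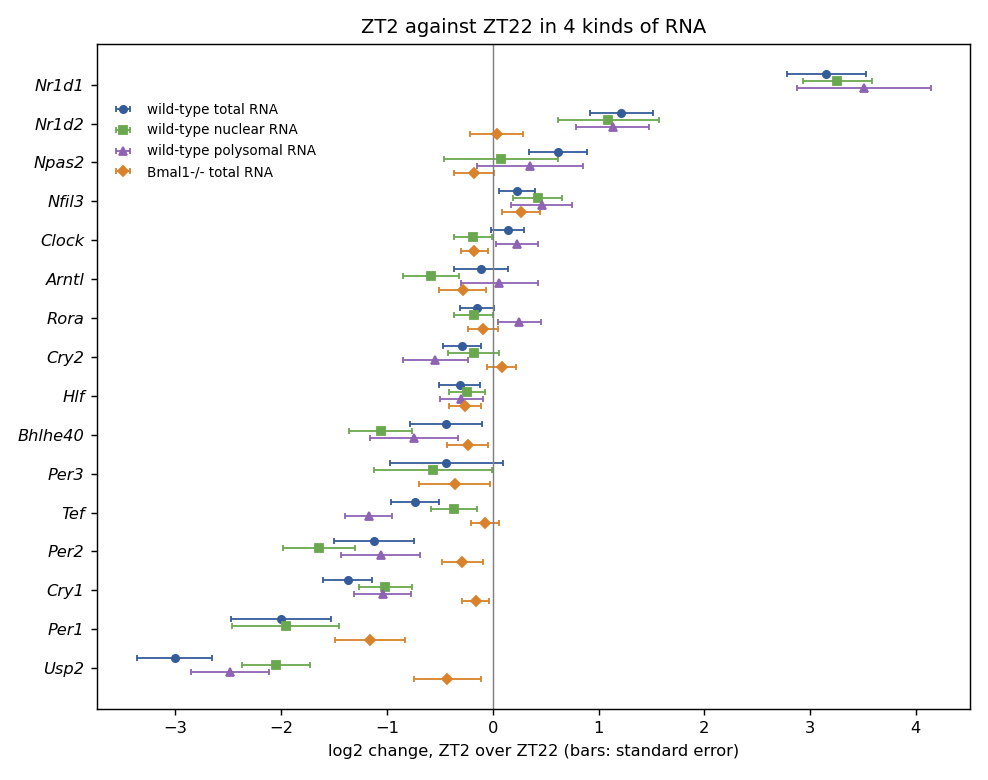
Log2 change of ZT2 over ZT22 (points) with its standard error (bars) for core clock genes and Usp2 in wild-type total, nuclear and polysomal RNA and in Bmal1-/- total RNA. Nr1d1 is at 3.15, 3.26 and 3.51 in the 3 wild-type kinds of RNA, and Usp2 at −3.01, −2.05 and −2.48, with −0.43 in Bmal1-/-.

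In Bmal1-/- liver, which carries a deletion of the clock activator, 0 of 12191 genes passed the edgeR test across lights on and 306 had an unadjusted p under 0.05 (2.51%). The 3′ tag of Arntl was still counted there, at 11.6 ± 3.87 CPM (SD, n = 6) at ZT22 and 9.16 ± 2.45 CPM at ZT2, and a 3′ tag outside the deleted part does not check the label. Nr1d1 was at 0.762 ± 0.639 CPM and 0.673 ± 0.673 CPM, under the count minimum. Usp2 was at 8.71 ± 3.86 CPM and 6.43 ± 2.83 CPM (log2 −0.43), and Cry1 was at 64.1 ± 5.50 CPM and 56.2 ± 10.4 CPM (−0.16). The step of Nr1d2 was 0.04 and of St3gal5 −0.10, while Per1 had −1.16 (unadjusted p = 0.00259). 1 library of this group, ZT22 replicate 6, had 491 CPM of Xist together with 143 CPM of the Y-linked genes; without it 0 genes passed and 341 had an unadjusted p under 0.05.

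The difference of the step between wild type and Bmal1-/- passed edgeR's adjustment for 0 of 12148 genes, with 575 at an unadjusted p under 0.05 (4.73%), while DESeq2 called 6. The values for the leading genes were −2.58 for Usp2 (unadjusted p = 2.05e-05, edgeR adjusted p = 0.249), 3.41 for Nr1d1 (edgeR adjusted p = 0.493), −1.72 for Tspan4 and −1.21 for Cry1 (edgeR adjusted p = 0.381 for both). A loss of the step in Bmal1-/- is therefore not shown for any single gene by the edgeR test of the difference.

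The step across lights on was then set against the step across lights off (ZT14 over ZT10), which uses other libraries of the same kind. The 2 steps differed for 133 of 12037 genes (1.1%) by an edgeR interaction test, with the lights-on value higher for 72 and lower for 61. This count moved with single libraries, to 82 without ZT10 replicate 4 and 85 without ZT10 replicate 5, and it was 34 with replicates 1 to 3 and 2 with replicates 4 to 6.

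Nr1d1 had a log2 change of 3.15 at lights on and −2.38 at lights off, a difference of 5.53 (edgeR adjusted p = 0.000868). Cry1 had −1.37 and 1.58, a difference of −2.96 (edgeR adjusted p = 9.79e-05), the smallest adjusted p of all genes tested. Usp2 was negative at both, with −3.01 and −0.72, and the 2 steps still differed by −2.30 (edgeR adjusted p = 0.0406). Among the 19 core clock genes tested here 6 differed, against 1.1% of all genes. Nr1d1 and Nr1d2 (2.42) differed in the positive direction. The other 4 differed in the negative direction, among them Cry1, Arntl (−2.19) and Nfil3 (−1.01). A difference can rest on either step. At lights on Arntl had −0.11 and Nfil3 0.23. From ZT10 to ZT14 mean Arntl went from 0.852 to 3.79 CPM and mean Nfil3 from 5.71 to 13.4 CPM.

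Of 15 clock output genes 1 differed in the positive direction and 4 in the negative direction, among them Usp2, Tsc22d3 and Cdkn1a. For this list and those below, the share over all genes was 1.1%. Of 18 glucocorticoid targets 4 differed, all in the negative direction: Fkbp5 (−2.29), Tsc22d3 (−1.71), Zbtb16 (−2.46) and Cdkn1a (−4.35). Of 26 heat shock genes 7 differed, again all in the negative direction, among them the chaperones Hsp90aa1 (−2.10), Hspa8 (−1.22), Dnajb1 (−1.34) and Hspa1b (−2.73). At lights off and lights on the values were unequal in size: Hsp90aa1 had 1.39 at lights off and −0.71 at lights on, and Hspa1b had 3.13 and 0.41. Among the ZT2 libraries Hsp90aa1 was lowest in replicate 4, at 134 CPM against 310 CPM in the next. Its lights-on value was −0.49 without both libraries that stood apart. Hspa8 had −0.07 at lights on, and its mean went from 64.6 CPM at ZT10 to 143 CPM at ZT14. Of 23 endoplasmic reticulum folding genes 3 differed, Hspa5 (−1.10, with −0.07 at lights on) among them. Trib3 (3.73), St3gal5 (−1.72), Tspan4 (−1.62), Rcan1 (−2.08), Fgl1 (−1.67), Plin5 (−1.45) and the cold-inducible RNA-binding gene Cirbp (1.44) also passed.

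The 6 time points of wild-type total RNA show where the ZT22 and ZT2 levels lie in the day. Nr1d1 was at 15.5, 41.3, 24.8, 4.75, 0.718 and 1.69 CPM at ZT2, 6, 10, 14, 18 and 22 (means of 6), so ZT22 was close to its lowest level and ZT2 on the way to its highest. Usp2 was at 1.77, 10.3, 95.7, 58.2, 40.1 and 14 CPM, with ZT2 its lowest time. Cry1 was at 14.2, 5.66, 7.66, 23.3, 33.1 and 36.9 CPM, with ZT22 its highest. Dbp was near its lowest at both times, with 1.05, 38.1, 97.6, 20.04, 4.05 and 1.27 CPM, and Arntl was near its highest at both, with 11.8, 1.76, 0.852, 3.79, 9.65 and 12.6 CPM. St3gal5 was at 69.9, 112, 271, 363, 324 and 168 CPM, with ZT2 its lowest time.

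**Figure D5:**
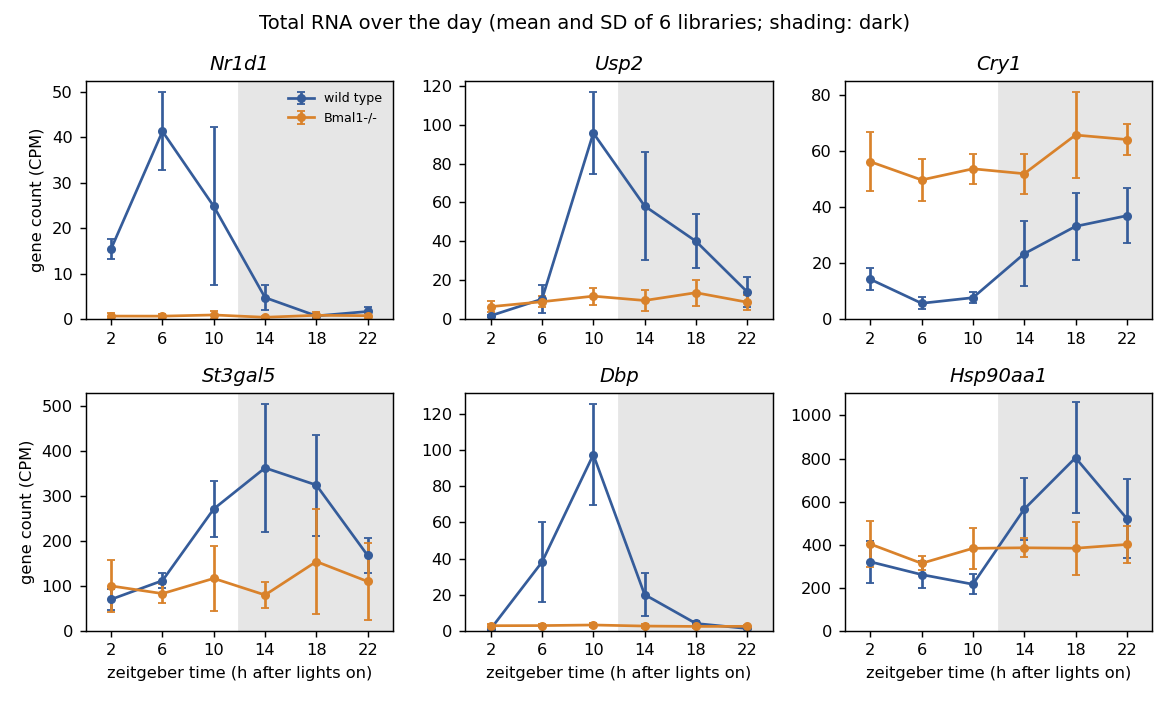
Mean CPM with SD (n = 6) of Nr1d1, Usp2, Cry1, St3gal5, Dbp and Hsp90aa1 over ZT2 to ZT22 in wild-type and Bmal1-/- total RNA, with the dark hours in grey. In wild type Nr1d1 goes from 1.69 CPM at ZT22 to 15.5 CPM at ZT2, while in Bmal1-/- it is at 0.762 and 0.673 CPM.

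The series was made to follow the use of alternative polyadenylation sites over the day, so the same libraries were tested for the level of each site and for the share each site takes of its gene. For site levels, 0 of 19654 sites (0%) passed edgeR's adjustment, with 627 at an unadjusted p under 0.05 (3.19%), while DESeq2 called 16. For usage, 0 of 13513 sites (0%) in 4353 genes passed, with 184 at an unadjusted p under 0.05 (1.36%), and edgeR's diffSpliceDGE called 0 as well.

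The sites with the smallest p, given as values only, lay in Errfi1, Ppp1r10 and Rnf7. In Errfi1, a feedback inhibitor of the EGF receptor, the site at chr4:150868297-150868426 took 33.8% ± 3.11 (SD, n = 6) of the gene at ZT22 and 22.4% ± 4.78 at ZT2. Its 6 ZT22 values ran from 29.3% to 38.2% and its ZT2 values from 15.9% to 28.4%, without overlap, with an edgeR adjusted p of 1.0. In Ppp1r10, which encodes a regulatory subunit of protein phosphatase 1, the site at chr17:35926205-35926281 took 22.5% and 11.5%. In Rnf7, a subunit of cullin ubiquitin ligases, the site at chr9:96470998-96471110 took 38.5% and 56.1%. Among 9283 sites in genes with at least 100 counts, 1293 differed by at least 5 points in the mean and 127 by at least 10. These counts compare means only, with ZT2 replicate 4 included and the spread between libraries left out, so they do not count shifted sites. Without both libraries that stood apart, 276 sites had an unadjusted edgeR p under 0.05 for usage.

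In Nr1d2, a clock gene with more than 1 site, the site at chr14:18204137-18204263 took 21.0% ± 9.50 (SD, n = 6) at ZT22 and 29.9% ± 5.72 at ZT2 (unadjusted p = 0.0923). Averaged over 4353 genes, the site farthest downstream took 44.6% ± 1.95 of the counts at ZT22 (41.6% to 47.4%) and 45.9% ± 5.75 at ZT2 (42.9% to 57.5%). The difference of 1.24 points gave p = 0.859 in an exact two-sided permutation test over the 12 libraries. The 57.5% belonged to ZT2 replicate 4, and without it the difference was −1.08 points (exact permutation p = 0.288), so the direction rests on that library.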

How the data were processed

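Total RNA of wild-type mouse liver was measured by QuantSeq at ZT22 and ZT2 in 6 libraries each. Groups and replicate numbers came from the sample titles, which matched the table columns, with 0 columns unmatched. The authors deposited raw counts per gene symbol and per polyadenylation site, with no pooling of replicates, and these deposited counts were used throughout. STAR 2.4.2a, edgeR and HOMER and the builds mm10 and GRCm38.p5 are named, per the submitters' processing notes; the counting settings and whether strand was used are not given in the sources used here. Members, gene lists and tests were chosen with earlier results of these data known.

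A gene or site entered a fit when its mean count there was 10 or more per library. The tool was edgeR 4.0.16 in R 4.3.3 (robust quasi-likelihood tests on TMM-normalized counts, limma 3.58.1) and Benjamini-Hochberg adjustment at 0.05. The 12 libraries alone entered the main comparison. The Bmal1-/- and lights-off comparisons were interaction terms over 24 libraries. Of 29199 sites in the authors' filtered list, 27034 were given to 9121 genes by the RefSeq GRCm38.p6 table (same strand, inside the gene or up to 1000 bp past its end), and 20.7% were found 25 bp or less from a gene end, a share of 0.13% when gene ends were moved by 5000 bp. For 2194 genes the strand was taken from the sites themselves. Sites shared by several genes (649) were dropped, as were 665 in genes where the ratio of site counts to gene count was outside 0.3 to 1.5. Usage was tested for sites with at least 5% of their gene in genes with at least 50 counts, with the gene total plus 0.5 as an offset. Mean distal usage was compared by an exact permutation test over libraries.

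Named were up to 10 rises and 10 falls past the threshold with a mean count of 50 or more and the same direction in replicates 1 to 3 and 4 to 6, all core clock genes, up to 3 members past the threshold of each other list or else its most abundant member as values, and the usage sites with the smallest p. Other genes were chosen after their values were seen. Some list members are counted in their lists but not reported here by name. Of 30 pairs of replicates, 0 held identical counts, and chi-square per degree of freedom was 10.2 or more. The statistics were tested on simulated data with the same dispersion for all genes and no library that stood apart, so that test does not cover such libraries. Alternatives were DESeq2 1.42.0, other size factors, a lower count minimum, a replicate block, subsets of replicates, leaving out each library, a spread from 36 libraries, and, chosen after seeing the data, leaving out both libraries that stood apart.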

Additional observations from a re-analysis of the deposited data

Results flagged for a closer look

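Of 200 groups of 6 values examined (each named gene at each time, and mean distal usage), 37 held a library whose gap to its nearest neighbour was large for the range of its group. Chance alone flags about 1 in 20 such groups, but many of these genes were named after their values were seen, some for an extreme value in these libraries, so the number cannot be read against that rate. Of the 37, 12 were ZT2 replicate 4 and 15 were ZT22 replicate 5, the libraries that stood apart above.

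ZT2 replicate 4 was the highest ZT2 library for Npas2 at 5.08 CPM, Igf1 at 1496 CPM, Pabpc1 at 473 CPM, mt-Nd4 at 93530 CPM, Tsku at 23.5 CPM, Alas1 at 191 CPM, Abcb11 at 400.4 CPM and Xist at 0.376 CPM. It was the lowest for Lamp1 at 334 CPM, Haao at 211 CPM and Hsp90aa1 at 134 CPM. Its mean distal usage was 57.5%, where the next ZT2 library had 44.9%.

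ZT22 replicate 5 was the highest ZT22 library for Per3 at 5.20 CPM, Bhlhe40 at 44.9 CPM, Hspa5 at 1788 CPM, Noct at 12.6 CPM, Hspa8 at 122 CPM and Acot3 at 67.4 CPM. It was also the highest for A1bg at 465 CPM, Xist at 408 CPM, Cyp2a4 at 343 CPM, Cyp2b9 at 141 CPM, Cyp3a41a at 90.4 CPM and Cyp2c69 at 859 CPM. It was the lowest for Cyp2e1 at 1127 CPM and for the Y-linked genes Ddx3y at 0.380 CPM and Uty at 0 CPM.

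The other 10 were spread over 7 libraries. ZT22 replicate 4 was high for the ribosome assembly genes Nop56 at 34.2 CPM, Nolc1 at 56.0 CPM and Ddx21 at 71.6 CPM. ZT22 replicate 3 was high for the acute-phase genes Saa1 at 1001 CPM and Saa2 at 403 CPM. Lpin1 was high in ZT22 replicate 6 at 145 CPM and in ZT2 replicate 3 at 31.4 CPM. Egr1, an immediate early gene, was high in ZT22 replicate 1 at 32.0 CPM, where the next had 11.5 CPM. Igfbp1, an insulin-repressed gene, was high in ZT2 replicate 5 at 244 CPM, where the next had 73.6 CPM. A1bg was at 0.359 CPM in ZT2 replicate 2 and at 0 in the other ZT2 libraries.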

How the results depend on the processing

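The number of genes past the threshold (2) was 6 with at least 1 count in the fit, 14 by DESeq2, 7 with the spread from 36 wild-type libraries, 6 with the replicate set as a factor, 1 with replicates 1 to 3, 0 with replicates 4 to 6 (edgeR; 587 at an unadjusted p under 0.05) and 4 without both libraries that stood apart. Leaving out 1 library gave 2 to 4, the 4 without ZT2 replicate 4. For site levels (0) DESeq2 gave 16, the 36-library spread 8, the replicate set as a factor 2, and leaving out 1 library 0 to 4 (4 without ZT2 replicate 4, 1 without ZT22 replicate 6). Site usage stayed at 0 under each alternative run. The wild type against Bmal1-/- difference (0) was 6 by DESeq2. The lights-on against lights-off count (133) was 280 by DESeq2, 34 with replicates 1 to 3, 2 with replicates 4 to 6 and 82 to 182 with 1 library left out, the lowest without ZT10 replicate 4 (82) and ZT10 replicate 5 (85). Nuclear RNA (2) gave 1 to 2 with 1 library left out and polysomal RNA (2) gave 2 to 3. The mean distal usage difference of 1.24 points ran from −1.08 (without ZT2 replicate 4) to 1.84 with 1 library left out and turned to −0.901 without both libraries that stood apart. In each case the cause was not tested, beyond the smaller number of libraries or the larger number of genes that some alternatives carry by construction.

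Of 96 named genes tested, 53 had an unadjusted p under 0.05, and 50 of these kept their sign under every alternative. The other 3 were Cyp2c69, at 0.27 with replicates 1 to 3 alone, and Xist and Cyp3a41a, which ran from −10.72 to 2.34 and from −4.72 to 0.37 with 1 library left out, the highest without ZT22 replicate 5. Of the 43 with a larger p, 30 changed sign under at least 1 alternative.

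In wild-type total RNA at ZT22 and ZT2 the replicate numbers did not pair the samples by this check, which was not run for the other times, fractions or genotype: same-numbered deviations correlated at −0.12 to 0.33, and 1 of 6 ZT22 libraries correlated best with its own number. A replicate block gave 2 genes, 0 sites by level and 0 by usage. It gave 222 for the lights-on against lights-off count, 9 in nuclear RNA, 5 in polysomal RNA and 0 in Bmal1-/- and for the difference from it. Low counts limit Per1, Per3, Npas2, Dbp and the minor sites. Precision also rests on 6 libraries per group, 2 of which stood apart, and on a 3′ count that cannot check the Bmal1-/- label.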
